A study of Mus musculus with 12 samples.

Results

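Quercetin was fed for 24 h to male mice null for cytochrome P450 reductase (POR-null), and gene expression in their ileum was compared with that of POR-null mice kept on the same diet without it. All 3 quercetin arrays and all 3 control arrays of this genotype entered, 6 of the 12 arrays of the series. Every probe set of the Affymetrix 430A array except the 64 array controls was compared, 22626 of 22690. Of these, 20380 carried 1 gene symbol and stood for 12393 genes.

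Every mouse of both groups was labelled C57BL/6, was 6 to 8 weeks old and first spent 14 days on a soya-free powdered RM3 diet. From day 15 the quercetin group received that diet with 6.2 g quercetin per kg, recorded as 7 mg per mouse, and the control group continued without it. The ileum was the lowest of 3 equal lengths of the small intestine, and its epithelial layer was scraped off for RNA. Each array held RNA pooled from 3 mice, and other mice made up each further pool, so an array averages over animals and the spread is that between pools. The wild-type groups on the same diets, also 3 arrays each, served for comparison. Where in the body the deletion was made is not given in the labels. Loss of the reductase throughout the body is lethal to embryos, and widely used adult null lines lack it in the liver. Por itself is not analysed here, so the genotype was not checked.

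POR is the flavoprotein that hands electrons from NADPH to the microsomal P450 enzymes, which oxidise drugs, bile acid precursors, retinoids and sterols. Quercetin is a flavonol of onions, apples and tea that is glucuronidated, sulfated and methylated largely in the gut wall and liver, and it is studied as a ligand of the aryl hydrocarbon receptor and as an inducer of antioxidant genes. The ileum takes up bile acids and vitamin B12, releases the hormone FGF15 to the liver in response to bile acids, and holds much of the gut's lymphoid tissue.

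Values are log2 levels, so a difference of 1 is a doubling. They ran from 2.66 to 14.04, with array medians of 5.91 to 5.96. Pairs of arrays correlated across probe sets with r of 0.9946 to 0.9956 within a diet and 0.9938 to 0.9950 between diets. The first principal component of the 6 arrays held 26.61% of the variance, with the controls at -0.38, 10.71 and 12.70 and the quercetin arrays at -6.70, -15.55 and -0.77. The 3′ minus 5′ difference of the Actb control probe sets, a sign of RNA quality, was 0.60 to 0.89 on control and 0.75 to 0.88 on quercetin. Markers of the ileum were present in all 6 arrays, with Fabp6, the ileal bile acid binding protein, between 12.05 and 12.47.

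The comparison asked how the ileum of mice with this deletion responded to the flavonol. No probe set passed the adjusted threshold of 0.05 in limma (0.0% of those tested), and the smallest adjusted p was 0.415, shared by 39 probe sets. At an unadjusted p under 0.05 limma had 1505 probe sets, 824 higher and 681 lower on quercetin, where 1131 would be expected if no probe set differed. After quantile normalization it had 703 higher and 715 lower, so the share that was higher went from 54.8% to 49.6%. Differences were small: 91.6% of probe sets differed by less than 0.2, 78 by more than 0.5 and 9 by more than 1. All genes named below therefore failed the correction, and their values describe these 6 arrays. The number of arrays limited the precision, with a median SE of 0.0886.

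Cd79a, a B lymphocyte gene, had the smallest p of the genes lower on quercetin, and some other B cell genes were lower with larger p-values. Cd79a, which passes on signals from the B cell receptor, was at 7.50, 7.53 and 7.52 in control pools 1, 2 and 3 and at 6.82, 6.66 and 7.09 in quercetin pools 1, 2 and 3. All 3 quercetin pools lay below the 3 closely grouped controls, by a mean of 0.66 (difference -0.66, SE 0.12, unadjusted p = 0.000113 by limma, adjusted p = 0.415). Cd79b, the partner chain of that receptor, was at 7.45, 7.18 and 7.58 on control and 6.78, 6.95 and 7.00 on quercetin (-0.49, SE 0.13, adjusted p = 0.526 by limma). These groups did not overlap either. Tnfsf13b, which encodes the B cell survival factor BAFF, is not on the list of B and plasma cell genes described below. It stood at 6.65, 6.42 and 6.97 on control and 5.86, 6.02 and 5.93 on quercetin (-0.74, SE 0.16, adjusted p = 0.415 by limma), again without overlap. Ms4a1, the CD20 surface protein, differed by -0.42 (SE 0.17) with all quercetin pools lower. Cr2, a complement receptor of mature B cells, differed by -0.29 (SE 0.12) with overlap.

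Over the list of B and plasma cell genes, 15 of 22 measured members were lower and 7 higher, with a median of -0.11, against a median of 0.02 and 55.8% higher over all 12393 genes. At an unadjusted p under 0.05, 4 members were lower and 1 higher. Over all genes 3.03% were lower and 4.05% higher at that p. All quercetin pools lay below all control pools for 3 members and above for 1, against 5.12% and 8.30% of all genes. With 1 pool left out the median ran from -0.18 without control pool 2 to -0.05 without control pool 1. Members of the list did not all differ in 1 direction. The plasma cell genes Igha, the constant region of IgA, and Jchain, which joins IgA and IgM subunits, differed by 0.36 (SE 0.24) and 0.45 (SE 0.28), with overlapping groups. They are named here after their values were seen. Control pool 2 had the lowest list score of the controls, -0.11 against 0.10 and 0.17, and the quercetin pools scored -0.07, -0.11 and 0.03. A score is the mean of the members' levels after each is centred on the 6 arrays. In bulk tissue, fewer cells of a type and less RNA per cell cannot be told apart.

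**Figure D1:**
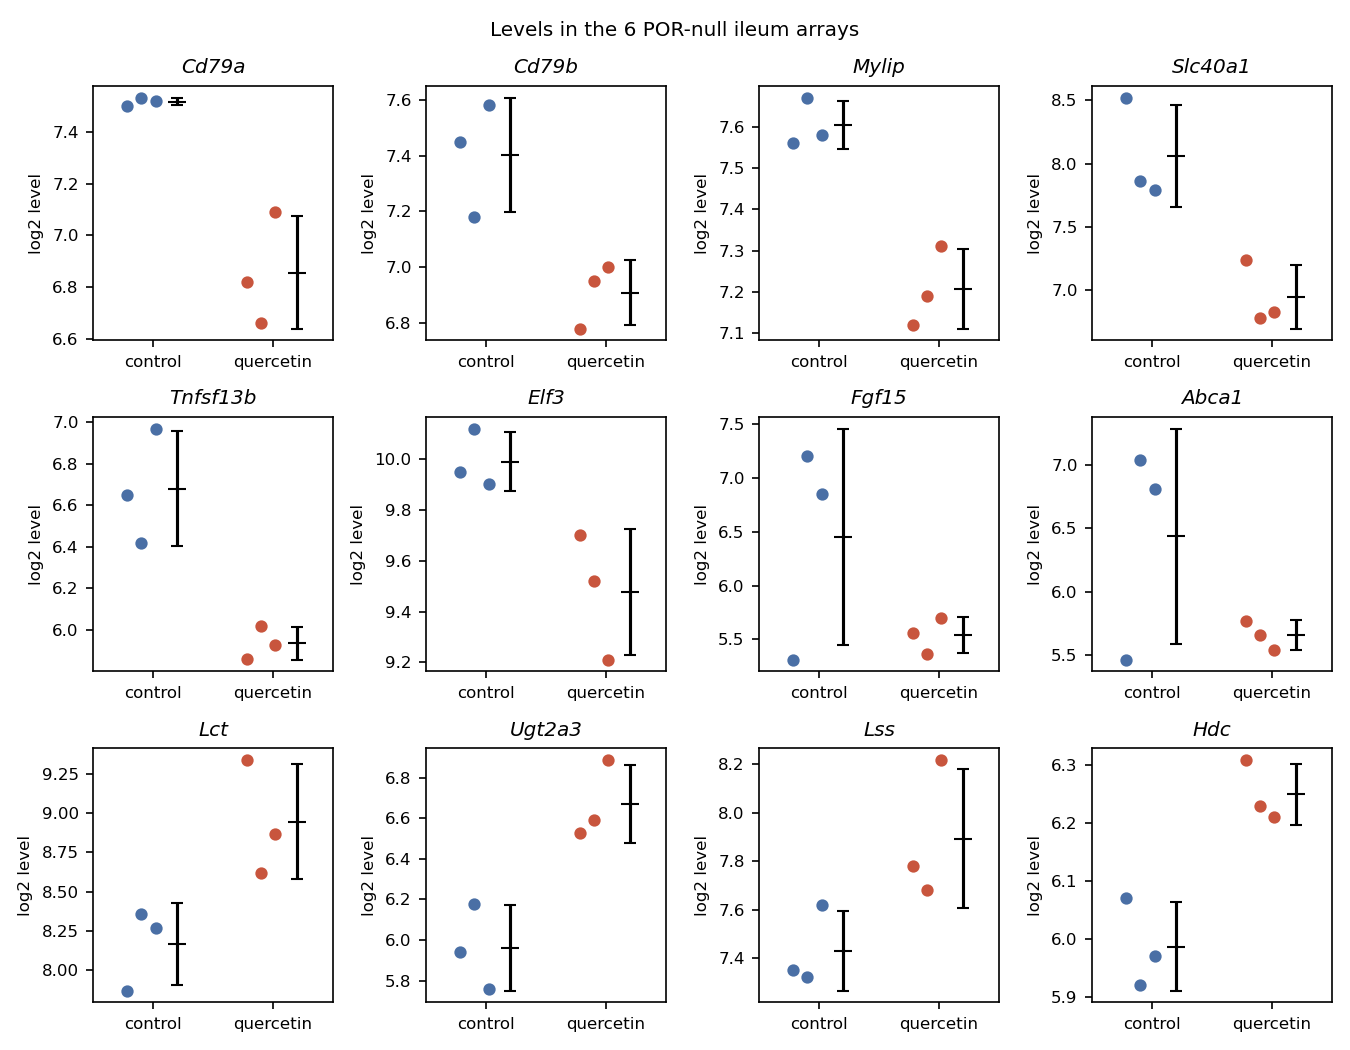
Log2 levels (y axis, a separate scale in each panel) of 12 genes in the 3 control (blue) and 3 quercetin (red) POR-null pools; points are pools in order of replicate number and bars show the mean and SD. Cd79a, Cd79b, Mylip, Slc40a1, Tnfsf13b and Elf3 have all quercetin pools below all controls, Lct, Ugt2a3, Lss and Hdc have them above, and in Fgf15 and Abca1 control pool 1 lies under the quercetin pools.

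Genes that present antigen on MHC class II, which B cells, dendritic cells and ileal enterocytes make, were lower in 8 of 10 cases (9 after quantile normalization), with a median of -0.21. H2-Eb1, a class II beta chain, was at 10.88, 10.82 and 10.24 on control and 9.81, 10.36 and 10.43 on quercetin (-0.45, SE 0.19). Cd74, the invariant chain that guides class II molecules, differed by -0.40 (SE 0.20), H2-DMa, which helps load their peptides, by -0.37 (SE 0.20), and Ciita, the master regulator of these genes, by -0.19 (SE 0.12). In each of these genes the groups overlapped. For H2-Eb1, Cd74 and H2-DMa control pool 3 lay well under the other controls and quercetin pool 1 was the lowest of its group. The list scores were 0.17, 0.25 and -0.11 on control and -0.30, 0.01 and -0.02 on quercetin, and without quercetin pool 1 or control pool 2 the median was -0.09. With 1 pool left out H2-Eb1 ran from -0.65 to -0.25 and Cd74 from -0.59 to -0.19. None of the 10 members had separate groups, against 5.12% of all genes with all quercetin pools below all controls and 8.30% above. H2-Eb1 was the 1 member with an unadjusted p under 0.05 (3.03% of all genes were lower at that p).

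Mast cell genes had higher means on quercetin in 13 of 13 measured cases, also after quantile normalization, with a median of 0.15. Hdc, the enzyme that forms histamine, was at 6.07, 5.92 and 5.97 on control and 6.31, 6.23 and 6.21 on quercetin (0.26, SE 0.08, adjusted p = 0.658 by limma). Its groups did not overlap, but its dimmer second probe set differed by -0.01. Mcpt1, a protease of mucosal mast cells, was at 5.22, 4.97 and 5.29 against 6.02, 5.65 and 5.18 (0.46, SE 0.18), and Mcpt2, a neighbouring protease, differed by 0.33 (SE 0.17). In both, quercetin pool 3 lay far under the other quercetin pools and did not exceed the controls' upper values. Kit, the receptor for stem cell factor, differed by 0.19 (SE 0.10), and its dimmer second probe set by -0.01, both with overlap. For 4 of the 13 genes all quercetin pools lay above all controls (8.30% of all genes), and 2 had an unadjusted p under 0.05 (4.05% of all genes were higher at that p). With 1 pool left out Mcpt1 ran from 0.25 to 0.67 and Mcpt2 from 0.15 to 0.55. Mean levels of the list were 3.88 to 6.55, a range in which most probe sets of the array differed by a small positive amount, as described further on.

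T cell and intraepithelial lymphocyte genes were higher in 17 of 23 cases (median 0.09, and 0.05 without quercetin pool 3). The homing receptor Ccr9 differed by 0.22 (SE 0.10) and Cd160, a receptor of intraepithelial lymphocytes, by 0.12 (SE 0.06), both without overlap. Their other probe sets overlapped, at 0.03 and 0.14 for Ccr9 and at 0.02 and 0.04 for Cd160. Gzmk, a granule protease of cytotoxic lymphocytes, showed 5.46, 6.04 and 6.12 on control and 6.25, 6.97 and 7.39 on quercetin (1.00, SE 0.37). Its groups were separate, with the lowest quercetin pool just above the highest control. Of 20 macrophage and granulocyte genes 13 were higher (11 after quantile normalization). Csf1r, the macrophage growth factor receptor, differed by 0.25 (SE 0.08), S100a9, a calcium-binding protein of neutrophils, by 0.23 (SE 0.08), and Cd68 by -0.16 (SE 0.09). The dimmer Csf1r probe sets differed by 0.07 and 0.15, with overlap. Interferon response genes split evenly, 14 higher and 14 lower (13 and 15 after quantile normalization), with Usp18, a brake on interferon signalling, at 0.60 (SE 0.27) and Irgm1, an interferon-induced GTPase, at -0.42 (SE 0.19). Irgm1 was at 8.26, 7.43 and 7.33 on control and 7.37, 7.29 and 7.09 on quercetin, and without control pool 1, which stood far above the rest, the difference was -0.13. Usp18 ran from 0.35 without quercetin pool 1 to 0.90 without quercetin pool 3. The antiviral helicase Ddx60 was at 7.45, 6.82 and 7.11 on control and 7.88, 7.66 and 7.71 on quercetin (0.62, SE 0.19), with no overlap.

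Genes of sterol export and of sterol synthesis differed in opposite directions. LXR receptors sense oxysterols and switch on genes that export sterol or lower its uptake, and all 11 measured members of the sterol efflux list had lower means on quercetin, 10 after quantile normalization. Their median was -0.19, and 3 of them differed by 0.02 or less. Mylip, a ubiquitin ligase that LXR switches on, was at 7.56, 7.67 and 7.58 on control and 7.12, 7.19 and 7.31 on quercetin (-0.40, SE 0.08, unadjusted p = 0.000138, adjusted p = 0.415). The groups were separate. Abca1, which loads cholesterol onto apolipoprotein A-I, was at 5.46, 7.04 and 6.81 on control and 5.77, 5.66 and 5.54 on quercetin (-0.78, SE 0.31). Here control pool 1 was the lowest of all 6 pools. The 2 dimmer Abca1 probe sets differed by -0.08 and -0.14. Abcg8, a subunit of the sterol exporter of the brush border, differed by -0.23 (SE 0.12), and Srebf1, an LXR target that drives fatty acid synthesis, by -0.19 (SE 0.08), the latter without overlap.

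At an unadjusted p under 0.05, 3 of the 11 members of the sterol efflux list were lower and none higher (3.03% and 4.05% of all genes), and 2 had all quercetin pools below all controls (5.12% of all genes). The list scores were 0.00, 0.08 and 0.25 on control and -0.07, -0.27 and 0.00 on quercetin. Without quercetin pool 2 the median was -0.01. In wild type the same list had a median of 0.18.

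Cholesterol synthesis and uptake genes, which SREBP2 switches on when sterol is scarce, were higher in 19 of 23 cases and 20 after quantile normalization (median 0.12 and 0.14). Lss, which closes the sterol ring, was at 7.35, 7.32 and 7.62 on control and 7.78, 7.68 and 8.22 on quercetin (0.46, SE 0.14). Quercetin pool 3 was the highest, and no quercetin pool fell within the control range. A dimmer Lss probe set differed by 0.40 (SE 0.09) and the third by -0.04 (SE 0.11). Fdps, which makes farnesyl diphosphate, differed by 0.27 (SE 0.11), and Fdft1, squalene synthase, by 0.25 (SE 0.09), both with overlap. Ebp, a sterol isomerase of the same pathway, was lower in all quercetin pools (-0.21, SE 0.08). Control scores were -0.07, -0.10 and -0.01 and quercetin scores -0.04, 0.03 and 0.19, and without quercetin pool 3 the median was 0.07. Of the members, 4 had an unadjusted p under 0.05 in the higher direction and 1 in the lower (4.05% and 3.03% of all genes).

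**Figure D2:**
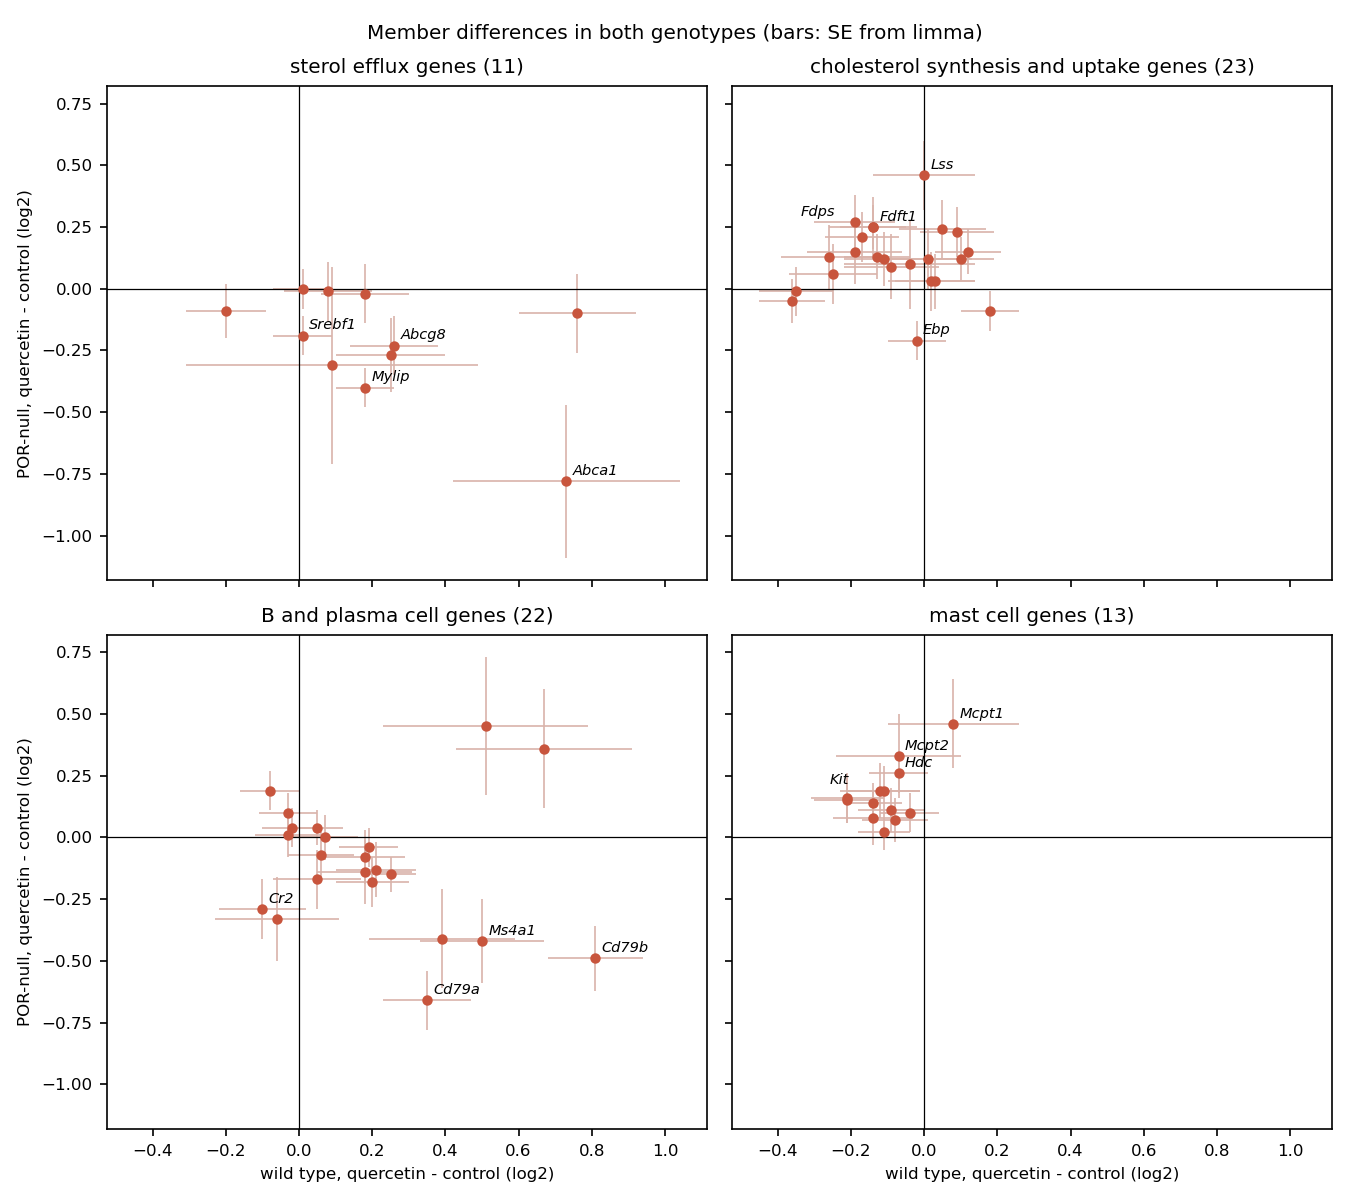
Difference of each member of 4 gene lists in POR-null (y axis) against wild type (x axis), both quercetin minus control in log2 units, with bars for the SE from limma and names for the 4 members with the smallest p. The 11 sterol efflux genes lie at or below 0 on the y axis (10 after quantile normalization) and all 13 mast cell genes above it.

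SREBP2 binds sterol regulatory elements, and the promoter of Hmgcs1, HMG-CoA synthase at the head of the pathway, is the classic example. Of 19 list members in the RefSeq promoter table (GRCm38.p6), Hmgcs1 alone held the letters TCACNCCAC on either strand within 250 bases before a start, where 1.22% of 27025 genes held them. The stretch is printed because it is the member that matched, chosen after the search, with the motif in capitals (chr13:119690101-119690350, plus strand). Hmgcs1 itself was at 11.28, 11.32 and 11.49 on control and 11.36, 11.65 and 11.83 on quercetin (0.25, SE 0.12), with overlap.
Hmgcs1: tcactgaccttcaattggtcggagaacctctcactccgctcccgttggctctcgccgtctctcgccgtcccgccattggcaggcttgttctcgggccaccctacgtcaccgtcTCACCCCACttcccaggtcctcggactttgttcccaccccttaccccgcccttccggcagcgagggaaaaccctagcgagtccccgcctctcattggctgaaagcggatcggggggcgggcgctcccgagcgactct

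Lipid absorption and lipoprotein genes were higher in 16 of 20 cases, 15 after quantile normalization (median 0.11, and 0.04 without quercetin pool 1). Apoa4, an apolipoprotein of chylomicrons, was at 11.90, 11.97 and 11.66 on control and 12.23, 12.19 and 12.39 on quercetin (0.43, SE 0.20), and both of its probe sets had separate groups. Apoc2, the cofactor of lipoprotein lipase, differed by 0.70 (SE 0.35) with overlap, and the fatty acid transporter Cd36 by 0.37 (SE 0.16) without. Cd36 was dim, at a mean level of 4.18, and its other probe sets differed by 0.11 and 0.04 with overlap. Plin2, which coats lipid droplets, was lower in all quercetin pools, at 9.42, 9.36 and 9.38 against 9.59, 9.73 and 9.66 (-0.27, SE 0.10). Of 30 fatty acid oxidation genes 19 were lower (median -0.08, and -0.02 without quercetin pool 2; 18 after quantile normalization). Cpt1a, the carnitine acyltransferase of the outer mitochondrial membrane, differed by -0.30 (SE 0.14), Slc25a20, the carnitine carrier, by -0.27 (SE 0.13) and Acads, a short-chain dehydrogenase, by -0.18 (SE 0.08). The last 2 had separate groups. For oxidative phosphorylation the median was 0.00, and 30 of 60 genes were higher and 29 lower (35 and 25 after quantile normalization).

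Genes of the ileal segment and of bile acid handling were lower in 9 of 12 cases (median -0.09, from -0.16 without quercetin pool 1 to -0.04 without control pool 3). Fgf15, the bile acid-induced hormone, was at 5.31, 7.20 and 6.85 on control and 5.56, 5.36 and 5.70 on quercetin (-0.91, SE 0.44). The control pools disagreed among themselves: pool 1 was under every quercetin pool and the other 2 were above, the same arrangement as in Abca1, and without control pool 2 the difference was -0.54. The bile acid receptor Nr1h4 (FXR) differed by -0.20 (SE 0.12), Fabp6 by -0.13 (SE 0.12), Slc51a, an exporter of bile acids to the blood, by -0.17 (SE 0.13), and Cubn, the receptor for vitamin B12 bound to intrinsic factor, by -0.19 (SE 0.10), all with overlap. For Nr1h4 control pool 1, at 8.95, stood above the other controls at 8.46 and 8.47, and without it the difference was -0.04. Slc10a2, the bile acid importer, was at 7.05, 6.91 and 6.69 against 7.52, 7.50 and 5.99 (0.12, SE 0.50), with quercetin pool 3 far under the others. In the probe set that stood for each gene, no member of this list had an unadjusted p under 0.05 or separate groups. Over all genes 3.03% were lower at that p, and 5.12% had all quercetin pools below all controls. The second Cubn probe set differed by -0.40 (SE 0.13, unadjusted p = 0.00942 by limma), without overlap.

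Of 12 genes typical of the proximal small intestine, 9 were higher (median 0.13, and 0.07 without quercetin pool 1) and 3 had separate groups in that direction (8.30% of all genes). Lct, the milk sugar enzyme lactase, was at 7.87, 8.36 and 8.27 on control and 9.34, 8.62 and 8.87 on quercetin (0.78, SE 0.35). Gip, an incretin hormone, differed by 0.49 (SE 0.21) and Cybrd1, a duodenal iron reductase, by 0.19 (SE 0.06), also without overlap. The list scores were -0.17, -0.01 and 0.02 on control and 0.22, -0.07 and 0.00 on quercetin, so the groups overlapped.

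Slc40a1 (ferroportin), the iron exporter of enterocytes and macrophages, is on the proximal list too and differed the other way. It was at 8.52, 7.86 and 7.79 on control and 7.24, 6.78 and 6.83 on quercetin (-1.11, SE 0.26, unadjusted p = 0.000824, adjusted p = 0.448 by limma). The highest quercetin pool was well below the lowest control pool. Its second probe set differed by -0.48 (SE 0.16), also without overlap. Over 16 iron handling genes 9 were higher and 7 lower. Tfrc, the transferrin receptor (0.22, SE 0.10), and Flvcr1, a heme exporter (0.22, SE 0.09), were higher in all quercetin pools. The dimmer Tfrc probe sets each differed by 0.04, with overlap.

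Xenobiotic P450 genes, whose products depend on the reductase for electrons, were higher in 19 of 32 cases (median 0.06). All quercetin pools lay above all controls for 8 of them and below for none, against 8.30% and 5.12% of all genes. Cyp4b1, an extrahepatic P450, was at 8.95, 8.48 and 8.70 on control and 9.49, 8.99 and 9.16 on quercetin (0.50, SE 0.22). Cyp2d9 differed by 0.32 (SE 0.12), Cyp3a13 by 0.23 (SE 0.08) and Cyp2d10 by 0.15 (SE 0.08), also without overlap. Paralogs of these families can share probes. Cyp2b10, a target of the receptor CAR, was at 7.86, 6.51 and 6.58 on control and 8.03, 8.23 and 7.73 on quercetin (1.01, SE 0.58), and Cyp3a11, the main drug-oxidising P450, at 10.45, 9.22 and 9.32 against 10.49, 10.40 and 10.69 (0.86, SE 0.49). In both, control pool 1 stood near the quercetin pools and well above the other controls.

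The pathways most often linked to quercetin had medians near 0. Of 8 aryl hydrocarbon receptor targets 5 were higher (median 0.06). Cyp1a1, the classic target, was at 5.93, 5.75 and 5.77 on control and 6.12, 5.98 and 5.87 on quercetin (0.17, SE 0.15), Tiparp, which restrains the receptor, differed by 0.27 (SE 0.11) and the repressor Ahrr by 0.20 (SE 0.10), all with overlap. The dimmer Tiparp probe sets differed by 0.02 and -0.15. Aldh3a1, an aldehyde dehydrogenase named here after its values were seen, was the member with separate groups, at 3.78, 3.68 and 3.68 on control and 3.58, 3.59 and 3.64 on quercetin (-0.11, SE 0.06). Promoters of 4 of 7 members in the table held the receptor's core letters GCGTG, against 30.9% of all genes. Of 22 Nrf2 antioxidant genes 11 were higher and 11 lower (median 0.01; 10 and 12 after quantile normalization). Nqo1, a quinone reductase, differed by -0.02 (SE 0.08) and Gpx2, the gastrointestinal glutathione peroxidase, by -0.07 (SE 0.15). Gclm, a subunit of the enzyme that begins glutathione synthesis, was at 8.67, 8.79 and 9.06 on control and 8.55, 8.48 and 8.35 on quercetin (-0.38, SE 0.16), with all quercetin pools lower. Its list's antioxidant element, TGANNNNGC, was in 9 of 18 promoters, against 38.7% of all genes.

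Genes that conjugate or carry flavonoids differed little as groups. Conjugation genes were higher in 13 of 19 cases (median 0.05), with Sult1a1, a phenol sulfotransferase, at 6.16, 6.37 and 6.25 on control and 6.57, 6.47 and 6.58 on quercetin (0.28, SE 0.10). Ugt2a3, a glucuronosyltransferase, was at 5.94, 6.18 and 5.76 against 6.53, 6.59 and 6.89 (0.71, SE 0.26). Both had separate groups. Glutathione S-transferases were at a median of 0.02, and the exporters Abcg2 and Abcc2 of flavonoid conjugates differed by -0.02 (SE 0.08) and -0.50 (SE 0.31).

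Heat shock genes were lower in 18 of 22 cases, 17 after quantile normalization (median -0.10, and -0.04 without control pool 2). At an unadjusted p under 0.05, 1 member was lower and 1 higher (3.03% and 4.05% of all genes). All quercetin pools lay below all controls for 3 members (5.12% of all genes) and above for 0 (8.30%). Hspb8 was the member higher at that p (0.18, SE 0.08), with overlap. Dnajb1, a co-chaperone, was at 8.15, 8.27 and 8.05 on control and 7.91, 7.89 and 7.94 on quercetin (-0.24, SE 0.09), with no overlap. Hspa1a, an inducible HSP70, was at 4.35, 5.19 and 4.12 against 4.22, 4.07 and 3.97 (-0.47, SE 0.23). Its near twin Hspa1b was at 7.35, 9.27 and 7.02 against 7.30, 6.67 and 6.45 (-1.07, SE 0.54). Both were highest in control pool 2, without which the differences were -0.15 and -0.38, and the list score of that pool was 0.30, against -0.10 to 0.00 in the other 5. In wild type, too, the list was lower on quercetin (median -0.13).

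HSF1 binds heat shock elements, and GAANNTTC, their core, was found on either strand within 250 bases before a start in 7 of 19 list members, against 7.73% of all genes in the table. The stretches of Hspd1 and Hspe1 overlap on opposite strands, so the same site was counted for both of these members. The HSP70 pair is printed for its likeness, with the motif in capitals: 247 of the 250 bases are identical (98.8%), and these copies may also share array probes, so their values are uncertain. Hspa1b is named for this reason and not by the rule for named genes. Hspa1a lies at chr17:34972157-34972406 and Hspa1b at chr17:34959239-34959488, both on the minus strand of GRCm38.p6.
Hspa1a: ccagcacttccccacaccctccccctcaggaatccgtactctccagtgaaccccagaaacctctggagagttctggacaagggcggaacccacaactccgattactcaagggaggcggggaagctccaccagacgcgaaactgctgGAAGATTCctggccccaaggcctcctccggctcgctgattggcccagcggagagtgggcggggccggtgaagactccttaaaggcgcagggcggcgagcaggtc
Hspa1b: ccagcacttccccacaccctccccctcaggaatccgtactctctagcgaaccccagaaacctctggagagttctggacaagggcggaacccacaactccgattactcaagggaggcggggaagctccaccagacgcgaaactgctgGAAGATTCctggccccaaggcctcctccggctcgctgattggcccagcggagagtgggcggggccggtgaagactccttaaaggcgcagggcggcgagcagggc

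Secretory and epithelial genes gave some of the widest single differences. Reg1, a regenerating protein, was at 5.12, 4.91 and 4.90 on control and 5.49, 5.85 and 5.77 on quercetin (0.73, SE 0.31), and Pnliprp2, a lipase, at 6.11, 6.46 and 6.00 against 6.95, 6.48 and 7.24 (0.70, SE 0.30). Neither gene's groups overlapped, though for Pnliprp2 quercetin pool 2 was only just above control pool 2. Itln1, a Paneth and goblet cell lectin, differed by 0.64 (SE 0.23) with overlap. Reg1, Pnliprp2 and Itln1 are on the list of Paneth cell and antimicrobial genes, of which 9 of 15 were higher and 6 lower. The median of that list was 0.13, and it ran from 0.05 to 0.19 with 1 pool left out. Defa31, an alpha-defensin of a near-identical family, had the largest mean difference of the genes with separate groups (2.42, SE 1.41), but this came from quercetin pool 2 at 12.30, while the other 5 pools were between 5.46 and 5.95. Without that pool the difference was 0.29.

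Ada, which deaminates adenosine, was at 11.29, 11.18 and 10.68 on control and 11.36, 11.72 and 11.92 on quercetin (0.62, SE 0.33). Elf3, an epithelial ETS factor, was at 9.95, 10.12 and 9.90 against 9.70, 9.52 and 9.21 (-0.51, SE 0.12), and Lama3, a laminin chain of the epithelial basement membrane, at 8.41, 8.65 and 8.24 against 7.70, 7.71 and 7.97 (-0.64, SE 0.21). In all 3 the groups were separate. Zfp36l1, which speeds the decay of AU-rich mRNAs, differed by -0.51 (SE 0.13), and its second probe set by -0.29 (SE 0.07). Endod1, an endonuclease-like protein gene, differed by -0.54 (SE 0.12), with all 4 of its probe sets lower and separate, and Spsb1, a ubiquitin ligase adaptor, by -0.59 (SE 0.15), with its other 3 probe sets between -0.13 and 0.02.

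The remaining genes named for their small p-values differed by less than 0.5. Lower on quercetin were Pml, which forms nuclear bodies (-0.31, SE 0.06), Skil, an inhibitor of TGF-beta signalling (-0.37, SE 0.08), Cnot8, an mRNA deadenylase (-0.35, SE 0.08), Tmx1, a thioredoxin-related membrane protein (-0.39, SE 0.08), and Cpne3, a copine (-0.35, SE 0.08). Rbm14, Rprd1b, Yipf4 and Pcmtd2 differed by -0.34 to -0.41, and of these Rbm14, Rprd1b and Yipf4 each had another probe set of the opposite sign. Higher were Lcmt2 (0.33, SE 0.07), Adh7, a retinol-oxidising alcohol dehydrogenase (0.37, SE 0.09), Cgnl1, a tight junction protein (0.28, SE 0.07), Cacna1b, a calcium channel subunit (0.43, SE 0.11), and the growth factor Igf2 (0.27, SE 0.07). The same direction held for Psapl1, Wdr54, Knstrn, a kinetochore protein, Trip11, a Golgi protein, Loxl3, a lysyl oxidase, Setd6, a methyltransferase, and Tulp2, at 0.26 to 0.36, but the dimmer probe set of Knstrn differed by -0.14. In the probe set that stood for it, every gene of this paragraph had all quercetin pools on 1 side of all controls. Other probe sets of Adh7, Wdr54, Trip11, Setd6, Igf2, Skil, Cnot8 and Pcmtd2 overlapped, with differences from -0.17 to 0.14. The dimmest Cgnl1 probe set overlapped as well (0.06).

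**Figure D3:**
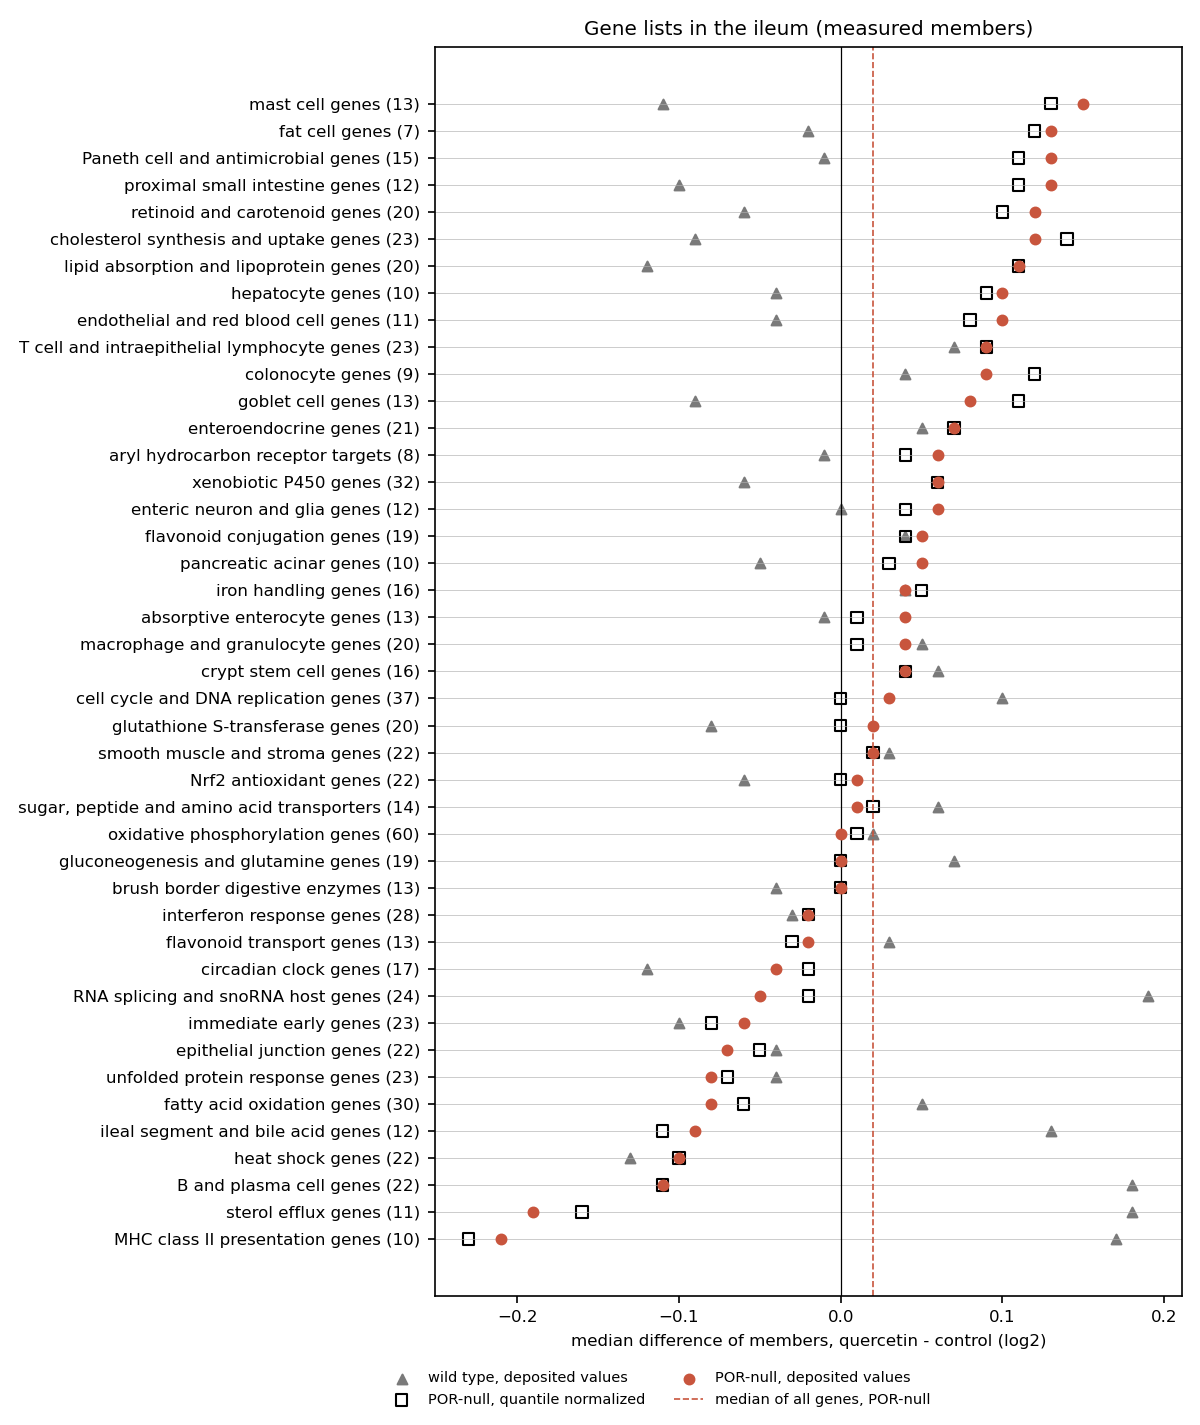
Median difference (x axis, quercetin minus control, log2) of the measured members of each of 43 gene lists, with the number of members in brackets, for POR-null as deposited (red) and after quantile normalization (open squares) and for wild type (grey triangles); the dashed line is the median of all genes in POR-null. POR-null medians run from -0.21 for MHC class II genes to 0.15 for mast cell genes.

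**Figure D4:**
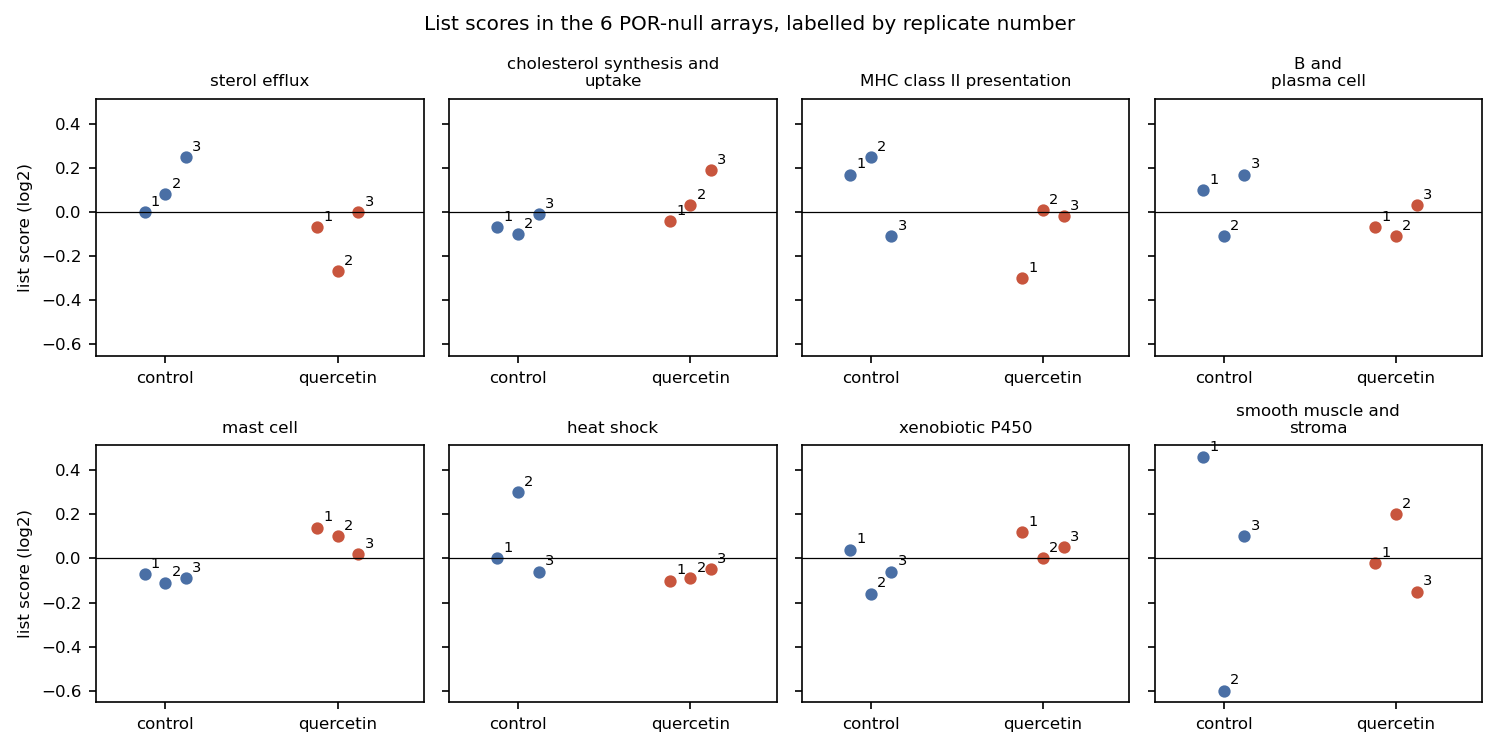
Scores of 8 gene lists (y axis, mean log2 level of the members after centring each gene on the 6 arrays) in each control (blue) and quercetin (red) POR-null pool, labelled by replicate number. The mast cell scores of quercetin lie above those of control, while the smooth muscle and stroma scores of the controls run from -0.60 to 0.46 and span those of quercetin.

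Other tissue layers varied between pools. The smooth muscle and stroma score was 0.46, -0.60 and 0.10 on control and -0.02, 0.20 and -0.15 on quercetin, over 22 genes with a median difference of 0.02. None of these genes had separate groups, against 5.12% of all genes with all quercetin pools below all controls and 8.30% above. All 11 endothelial and red blood cell genes were higher, 9 after quantile normalization (median 0.10), with Vwf, the von Willebrand factor, at 0.25 (SE 0.07). Enteric neuron and glia genes were higher in 9 of 12 cases. The part of these markers in the results above was not tested.

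The sign of a difference also went with the level of the probe set. In deciles 2 to 5 by mean level, with median levels of 4.16 to 5.70, the median difference was 0.030 to 0.037 and 62.2% to 63.8% of probe sets were higher on quercetin. In decile 9, at a median level of 8.10, it was -0.030 and 37.6% were higher. After quantile normalization the decile medians lay between -0.002 and 0.008. The arrays differed slightly in their spread, with an SD over probe sets of 1.888 to 1.894 on control and 1.863 to 1.891 on quercetin. Lists of dim genes, such as the mast cell and endothelial lists, thus start from a small positive background, and lists of bright genes from a negative one. Whether this accounts for any list's value was not tested beyond the quantile normalized values given here.

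**Figure D5:**
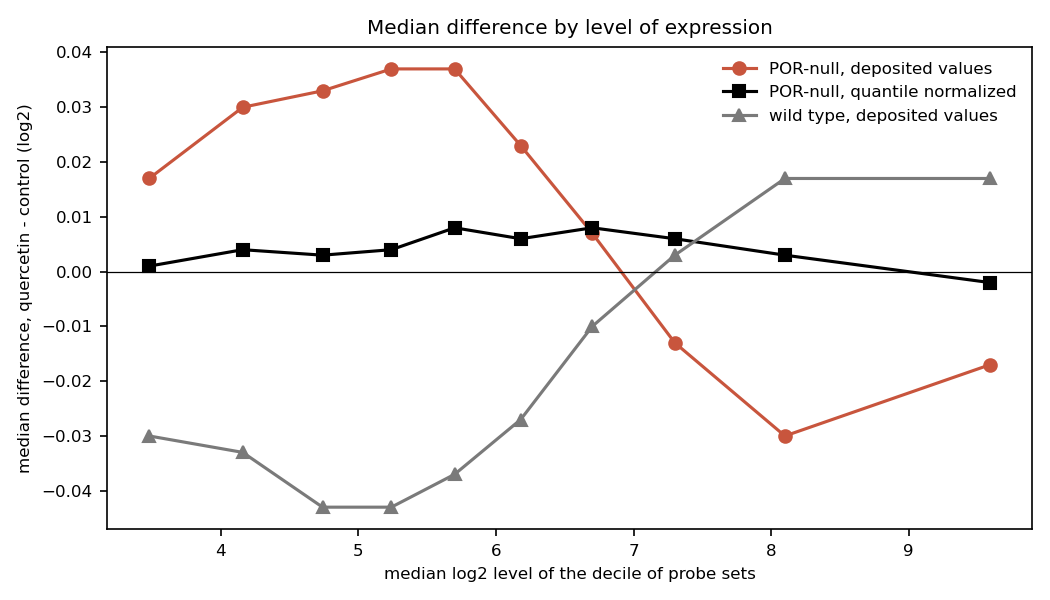
Median difference (y axis, quercetin minus control, log2) of each decile of probe sets against the decile's median log2 level (x axis), for POR-null as deposited (red), POR-null after quantile normalization (black) and wild type as deposited (grey). In POR-null the deposited medians go from 0.037 at decile 4 to -0.030 at decile 9, and the quantile normalized ones stay between -0.002 and 0.008.

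The POR-null and wild-type responses were then compared directly. The interaction, the POR-null difference minus the wild-type one, passed in 0 probe sets (0.0%, limma, smallest adjusted p = 0.0917), with 2332 at an unadjusted p under 0.05. It passed in 2 with the eBayes trend and robust options and in 3 with the replicate number as a block. With 1 array left out it passed in up to 9, the 9 without wild-type control pool 1. Cd79b had the smallest interaction p (-1.30, SE 0.18, adjusted p = 0.0917), as its wild-type difference was 0.81 (SE 0.13) and its POR-null one -0.49. The snoRNA host gene Gas5 had the same adjusted p (-1.16, SE 0.17). In POR-null it was at 8.47, 8.30 and 8.61 on control and 8.36, 8.72 and 8.35 on quercetin, a difference of 0.02 (SE 0.12) whose sign turned when arrays were centred on their medians, so its interaction rests on the wild-type difference of 1.18. Cd79a (-1.01, SE 0.17), Mylip (-0.58, SE 0.11), Rtn4, which shapes the endoplasmic reticulum (-0.60, SE 0.11), Exosc9, an exosome subunit (-0.70, SE 0.13), Hnrnpd, a binder of AU-rich mRNAs (-0.85, SE 0.17), and Slc15a4, a lysosomal transporter of histidine (-0.53, SE 0.11), followed, with adjusted p-values of 0.151 to 0.241.

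Across 12393 genes the differences in the 2 genotypes had a Pearson correlation of -0.087, and -0.052 after quantile normalization. The genes are not independent and the arrays of the 2 comparisons are different. Several lists had medians of opposite sign: B and plasma cell genes -0.11 in POR-null and 0.18 in wild type, ileal segment genes -0.09 and 0.13, cholesterol synthesis genes 0.12 and -0.09, and mast cell genes 0.15 and -0.11. The dependence on level also ran the opposite way in wild type, with decile medians from -0.043 at deciles 3 and 4 to 0.017 at deciles 9 and 10, and its part in these signs was not tested. For the lists, the difference between genotypes was not tested.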

How the data were processed

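RNA was measured on 12 Affymetrix 430A arrays, 3 per group. The authors deposited log2 levels for each probe set on each array. MAS5 and RMA appear in the submitters' processing notes, without a role or version, and genome builds are not given in the sources used here. The values were used without further normalization. Symbols came from the platform annotation: 691 probe sets had several and 1555 none, and 20351 of those with 1 were matched by gene ID. A gene was represented by its probe set with the highest mean over 12 arrays. Differences and overlap given for a gene are those of that probe set unless another is named.

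The model, fitted by limma 3.58.1 under R 4.3.3, held 4 group means over the 12 arrays (8 residual and 5.59 prior degrees of freedom), with Benjamini-Hochberg adjustment across 22626 probe sets and a threshold of 0.05. All p-values in the text are limma's and two-sided. The code was tested on simulated data. Group labels were the submitters'; each pool held other mice, per the series' design text. Members and the 43 gene lists (938 names, 769 measured genes, 36 on several lists, 130 names not analysed) were chosen with earlier results of these data known. Genes were named by rule: the 12 with the smallest p and the 8 with the largest non-overlapping difference in each direction, the 8 with the smallest interaction p, up to 4 per list by p, and a fixed set. Predicted genes were left out. Promoters were those of RefSeq (GRCm38.p6). Alternatives were other normalizations, filters, variance models, array weights, blocks, probe set means, a threshold of 0.10 and leaving out each array. Figures used Python 3.11.15 and matplotlib 3.10.9.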

Additional observations from a re-analysis of the deposited data

How the results depend on the processing

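No probe set passed in the POR-null quercetin comparison under any of the alternatives tried, including an adjusted threshold of 0.10 and each array left out in turn. The 1505 probe sets at an unadjusted p under 0.05 became 752 when those below the median level were left out, where fewer were tested, and stayed within 1.5 times in the other settings (1120 to 1673 with an array left out). In the interaction, 2 probe sets passed with eBayes trend and robust and 0 to 9 with an array left out, 9 of them without wild-type control replicate 1; the cause was not tested. With the replicate number as a replicate block, 0 passed in the POR-null comparison, 1621 had an unadjusted p under 0.05 and 3 passed in the interaction. Same-numbered POR-null pools of both diets correlated in their deviations over all probe sets at -0.05, -0.04 and 0.07. Pairs with unlike numbers ran from -0.07 to 0.1. Wild-type pools were not compared in this way, and a link between same-numbered pools in some genes was not tested. Over the alternatives, 14 differences of named genes turned sign and 4031 did not. The 14 were in genes with a difference smaller than its SE: Gas5 was -0.003 with arrays centred on their medians and ran from -0.105 to 0.092 with an array left out, Hnrnpd from -0.208 to 0.037, Slc10a2 from -0.138 to 0.627, Nr0b2 from -0.177 to 0.093, Nqo1 from -0.068 to 0.047 and Abcg2 from -0.090 to 0.020. List medians moved by more than the SD of their scores in 37 cases and by less in 866. With 3 pools a group, differences near the median SE of 0.0886 could not be told from 0.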

Other observations

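Hormone genes of the enteroendocrine cells went in both directions, with 14 of 21 higher (median 0.07; 15 after quantile normalization). Pyy, the ileal and colonic peptide that slows the gut, was at 8.87, 8.93 and 8.85 in the POR-null control pools and 8.46, 8.40 and 8.68 in the quercetin pools (-0.37, SE 0.10, adjusted p = 0.529 by limma). Tph1, the serotonin-forming enzyme of enterochromaffin cells, was at 4.70, 4.68 and 4.71 against 4.87, 4.92 and 4.91 (0.20, SE 0.06). Both had separate groups and neither passed.

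Junction genes of the epithelium were lower in 14 of 22 cases (median -0.07; 13 after quantile normalization). At an unadjusted p under 0.05, 4 members were lower and 2 higher (3.03% and 4.05% of all genes). All quercetin pools lay below all controls for 3 members and above for 2, against 5.12% and 8.30% of all genes. Cgnl1, named above, had the smallest p of this list and was higher (0.28, SE 0.07), without overlap. Dsp, the desmosomal plaque protein, was at 10.17, 10.24 and 10.56 on control and 9.75, 10.06 and 10.07 on quercetin (-0.36, SE 0.11), and Cldn1, a claudin, at 5.81, 5.80 and 5.73 against 5.45, 5.10 and 5.62 (-0.39, SE 0.15), again without overlap. The mean over all 4 probe sets of Cldn1 was -0.09. Jup, plakoglobin, differed by -0.21 (SE 0.08) with overlap. Retinoid and carotenoid genes were higher in 13 of 20 cases (median 0.12), with Rdh16, a retinol dehydrogenase, at 0.24 (SE 0.11) and Lrat, which esterifies retinol, at 0.13 (SE 0.07), both with all quercetin pools above all controls. Lrat was dim, with means of 3.49 on control and 3.62 on quercetin.

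Of the stress and timing lists, unfolded protein response genes were lower in 17 of 23 cases (median -0.08), immediate early genes in 15 of 23 (-0.06) and circadian clock genes in 10 of 17 (-0.04). The unfolded protein response median turned to 0.02 without control pool 2, and the clock median to 0.04 without control pool 1. Atf3, a stress-induced transcription factor, was at 8.78, 8.83 and 8.10 on control and 8.19, 8.27 and 7.88 on quercetin (-0.46, SE 0.18), with overlap. Other members were higher: Chac1 of the unfolded protein list (0.27, SE 0.11), with overlap, and the immediate early gene Dusp1 (0.28, SE 0.14), without. At an unadjusted p under 0.05, 2 unfolded protein response genes were lower and 1 higher (3.03% and 4.05% of all genes). For immediate early genes these counts were 2 and 0. Cell cycle genes were higher in 24 of 37 cases, but in 18 of 37 after quantile normalization. Hepatocyte, pancreatic acinar and colonocyte markers had medians of 0.10, 0.05 and 0.09, and Alb, albumin, was at 5.66, 5.53 and 5.50 on control and 5.91, 5.69 and 5.85 on quercetin (0.25, SE 0.09).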
